A study of Mus musculus with 36 samples.

Results

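The 10 genes described here encode MHC class I molecules and the machinery that loads them with peptide: H2-D1, H2-T10, H2-T23, H2-M3, B2m, Tap1, Tap2, Tapbp, Psmb8 and Psmb9. They were taken by symbol from the array platform's annotation, and each gene was read from its probe set with the highest mean. Of the 10 genes, 8 had a probe set annotated to their symbol alone, and all 8 were among the 14953 genes tested. H2-D1 and H2-T23 had none, and their signal could be read only from probe sets that carry several symbols.

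The samples were lungs of A/J and C3H mice, measured as total RNA on 36 Affymetrix arrays, 18 for each strain. NNK, a nitrosamine carcinogen of tobacco, was injected at 100 mg/kg once a week, 4 times in all. There were 18 groups of 2 arrays: A/J with NNK and C3H with NNK at weeks 3, 6, 9 and 12 after exposure, and A/J untreated and C3H untreated at weeks 0, 3, 6, 9 and 12, all of them before mature tumours. The untreated mice carry the label of no treatment, so no vehicle is recorded, and neither the substrain of C3H nor the sex and age of the mice was given in the sources used here. Nothing in the labels ties the 2 arrays of a group to different animals. The p-values therefore reflect the variation from array to array, part or all of which may be technical.

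Class I molecules sit on nearly all nucleated cells and show peptides from inside the cell to CD8 T cells and natural killer cells. Proteasomes cut proteins to peptides, the TAP transporter moves the peptides into the endoplasmic reticulum, and tapasin holds the empty class I heavy chain and B2m beside TAP until a peptide binds. Interferons raise most of these genes, and their haplotypes at the H2 complex differ between inbred strains. A/J carries the recombinant H2a haplotype, with k alleles at the K and class II end and d alleles at the D end, and C3H strains carry H2k throughout. The bulk lung samples hold many cell types, so fewer cells of a type and less RNA per cell cannot be told apart.

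None of the 8 markers of lung epithelium and endothelium was at 0 on all arrays of a strain and treatment. Their summed intensity ranged from 78240 to 82710 in A/J with NNK, from 75960 to 82010 in A/J untreated, from 73470 to 82510 in C3H with NNK and from 79840 to 82530 in C3H untreated. Cornified skin genes stood out on 3 arrays, both untreated A/J arrays of week 6 and array 2 of untreated A/J at week 0, where Lor, a structural protein of the cornified envelope, reached 12.74, 13.59 and 13.65 on the log2 scale. Values below are log2(intensity + 16) after quantile normalization, and a gene is called where its adjusted p from limma, over all genes tested, is under 0.05. Levels of different probe sets are not compared.

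Most of these genes were higher in A/J than in C3H, 3 rose over the weeks in untreated A/J, and none was called for NNK. Over the weeks 17.5% of all genes tested rose in untreated A/J, and no trend of the 8 genes was called as different between the strains. Without week 6 and the untreated A/J array of week 0 with high Lor, the median A/J trend of the 8 genes was 0.14. With all arrays it was 0.29. In NNK-treated lungs 6 of the 8 genes were higher in A/J and 0 were lower, while 23.5% of all genes tested were called higher in A/J. In untreated lungs, which share no array with the NNK-treated comparison, 6 of 8 were higher and 0 lower, with 19.8% of all genes called higher. The p-values of both comparisons rest on a variance pooled over all 18 groups. The median difference of the 8 genes, A/J minus C3H, was 0.40 in NNK-treated arrays and 0.28 in untreated arrays, beside -0.02 and -0.04 over all genes tested.

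**Figure D1:**
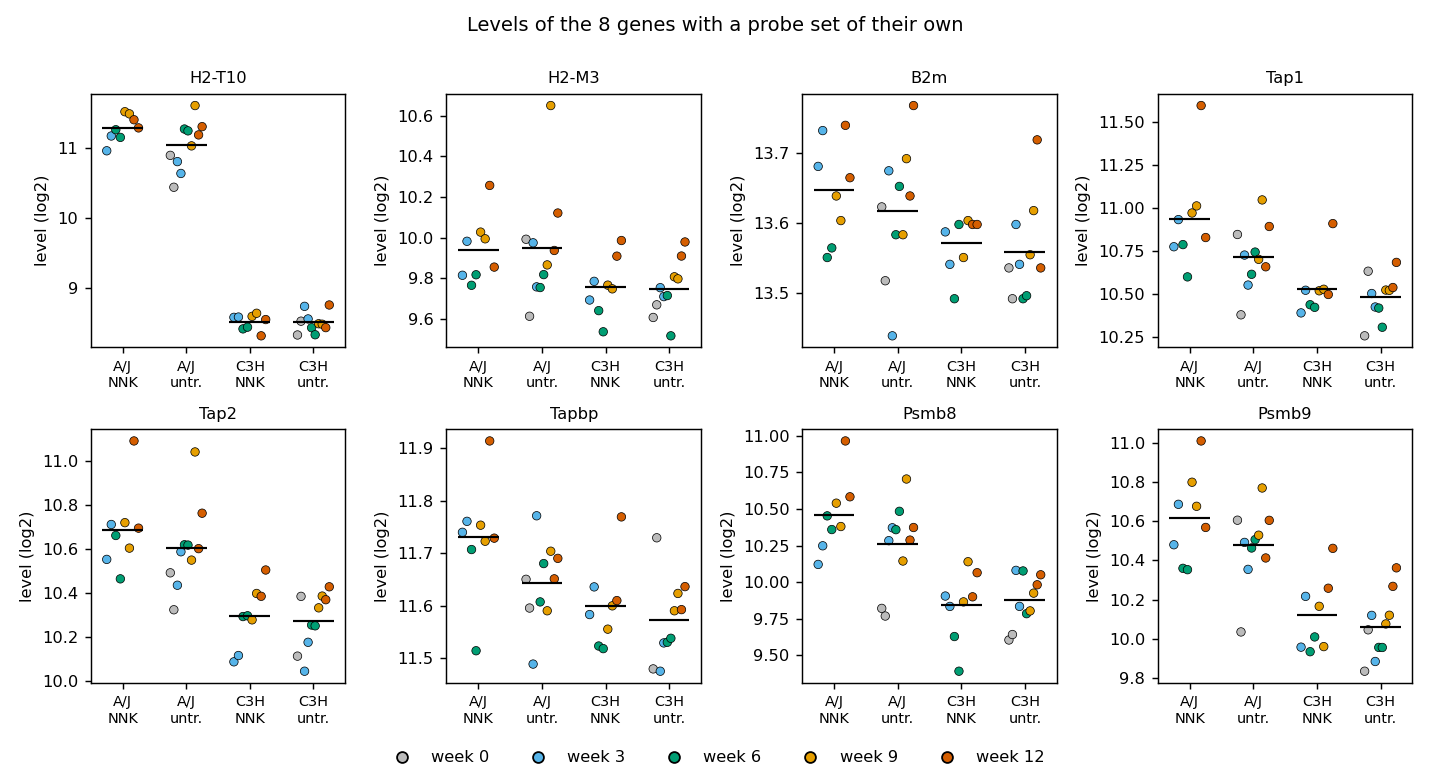
Level of each gene on every array (log2, vertical axis) in A/J with NNK, A/J untreated, C3H with NNK and C3H untreated, with points coloured by week and a line at the mean of the group. H2-T10 is the only gene of the 8 whose A/J arrays all lie above its C3H arrays.

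H2-T10 is a nonclassical class I gene of the T region, and the RefSeq table used here, made from C57BL/6J, lists it as a transcribed pseudogene. In A/J with NNK it measured 10.96 and 11.17 at week 3, 11.26 and 11.15 at week 6, 11.52 and 11.49 at week 9, and 11.40 and 11.29 at week 12. In C3H with NNK it measured 8.58 and 8.59, 8.42 and 8.44, 8.60 and 8.64, and 8.32 and 8.55 at the same weeks. In untreated A/J its 10 arrays ranged from 10.44 to 11.61 with a median of 11.11, against 8.33 to 8.76 with a median of 8.49 in untreated C3H. Every A/J array lay above every C3H array, with a gap of 1.68 between the nearest pair over all 36 arrays. Of all genes tested, 1.52% had every A/J array above every C3H array.

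The difference of H2-T10 was 2.77 ± 0.07 (SE) in NNK-treated arrays (adjusted p = 1.13e-17) and 2.53 ± 0.07 in untreated arrays, a 5.79-fold higher level in A/J (adjusted p = 1.64e-18). Only 0.0602% of all genes tested differed by as much between untreated strains. Leaving out any 1 array gave between 2.48 and 2.59 for the untreated difference.

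A probe set that lists H2-T9, H2-T22 and H2-T10 together, 10450694, ran the other way. Its level in A/J with NNK ranged from 8.80 to 9.44, against 10.48 to 10.79 in C3H with NNK. In untreated A/J it ranged from 7.91 to 9.38, against 10.27 to 10.71 in untreated C3H. All C3H arrays lay above all A/J arrays, with a gap of 0.825. Of the 14953 genes tested, 846 had strains that did not overlap over 36 arrays, 227 of them with A/J above. The difference of the probe set was -1.51 ± 0.10 in NNK-treated arrays (adjusted p = 2.02e-11) and -1.66 ± 0.09 in untreated arrays (adjusted p = 5.07e-13). Within strains the 2 probe sets varied together over the arrays, with Pearson's r of 0.78 over 18 A/J arrays and 0.53 over 18 C3H arrays, described without a test. That was not particular to this pair. Probe set 10450694 and Psmb9, which it does not list, had 0.76 in A/J and 0.79 in C3H. Probe sequences were not used here, so the level of a transcript and the binding of its allele to the probes cannot be told apart.

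**Figure D2:**
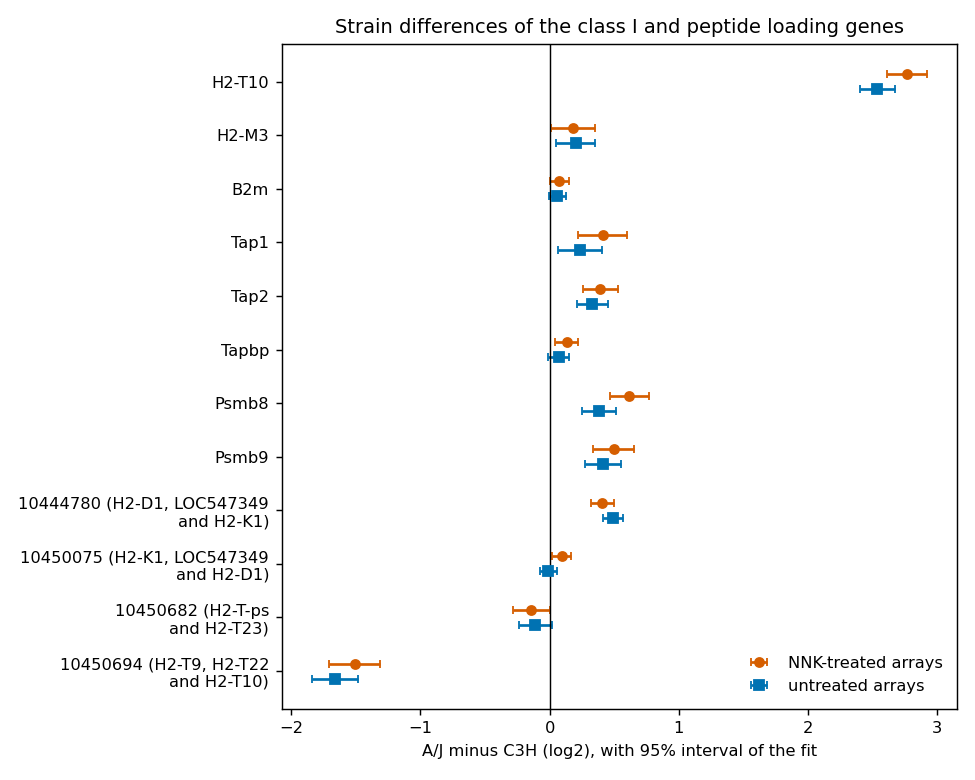
Difference A/J minus C3H (log2, horizontal axis) in NNK-treated arrays (circles) and untreated arrays (squares) for the 8 genes and for 4 probe sets of several symbols, with the 95% interval of the fit. H2-T10 lies at 2.77 and 2.53, and probe set 10450694, which also lists H2-T10, at -1.51 and -1.66.

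H2-D1, a classical class I heavy chain, is listed together with H2-K1 and LOC547349 on 2 probe sets, so a value cannot be given to 1 of these genes. These and the other probe sets of several symbols were fitted with all 17557 named probe sets at or above the 25th percentile. In that fit 53.8% were called in the NNK-treated strain comparison and 57.8% in the untreated one, in either direction. Probe set 10444780 averaged 12.65 ± 0.11 in A/J with NNK and 12.24 ± 0.09 in C3H with NNK (SD, n = 8 arrays each), and 12.59 ± 0.15 in untreated A/J and 12.10 ± 0.10 in untreated C3H (SD, n = 10 arrays each). Neither pair of groups overlapped, and the difference was 0.41 ± 0.04 with NNK (adjusted p = 4.41e-08) and 0.49 ± 0.04 without (adjusted p = 3.52e-10).

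The other probe set of the same symbols, 10450075, overlapped between the strains within both comparisons. With NNK the difference was 0.09 ± 0.04 (adjusted p = 0.0315), and that call was lost in 8 of 36 leave-one-out fits, with values from 0.08 to 0.11 over all 36. The 8 arrays were, with NNK, array 2 of week 3 and array 1 of weeks 6, 9 and 12 in A/J, and array 1 of weeks 3, 6 and 12 and array 2 of week 9 in C3H. Only the 8 NNK-treated arrays of each strain enter this difference, so leaving out an untreated array could not move its value. Without NNK the probe set averaged 12.09 ± 0.14 in A/J and 12.10 ± 0.12 in C3H (SD, n = 10 arrays each), a difference of -0.01 ± 0.03 (adjusted p = 0.823).

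H2-T23 encodes Qa-1, a nonclassical class I molecule that shows leader peptides of other class I chains to natural killer cell receptors. It shares probe set 10450682 with H2-T-ps. That probe set averaged 11.67 ± 0.22 in A/J with NNK and 11.81 ± 0.13 in C3H with NNK (SD, n = 8 arrays each), a difference of -0.14 ± 0.07 (adjusted p = 0.0906). In untreated arrays the difference was -0.11 ± 0.06 (adjusted p = 0.136, 95% interval from -0.24 to 0.02), and the strains overlapped.

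H2-M3 presents peptides with N-formylmethionine, a mark of bacterial and mitochondrial proteins. It averaged 9.95 ± 0.29 in untreated A/J and 9.75 ± 0.14 in untreated C3H (SD, n = 10 arrays each), a difference of 0.20 ± 0.07 (adjusted p = 0.0215). The call was lost without array 1 of untreated A/J at week 0 (0.16, adjusted p = 0.0622), without array 2 of untreated A/J at week 9 (0.12, adjusted p = 0.0565) or without array 2 of untreated C3H at week 6 (0.18, adjusted p = 0.0501). In NNK-treated arrays H2-M3 differed by 0.18 ± 0.08 (adjusted p = 0.0644). It was called without normalization (0.20, adjusted p = 0.0313) and under array weights (0.18, adjusted p = 0.0288). It was also called without array 2 of A/J with NNK at week 12 (0.23) or without either untreated A/J array of week 9 (0.18). Untreated arrays do not enter this difference, so leaving them out changed only the pooled variance and not the value.

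B2m is the light chain that every class I molecule carries. It averaged 13.65 ± 0.07 in A/J with NNK and 13.57 ± 0.04 in C3H with NNK (SD, n = 8 arrays each), and 13.62 ± 0.09 in untreated A/J and 13.56 ± 0.07 in untreated C3H (SD, n = 10 arrays each). Its differences of 0.08 ± 0.04 (adjusted p = 0.0852) and 0.06 ± 0.03 (adjusted p = 0.130) did not pass the test, and the strains overlapped in both. The 95% intervals reached 0.15 with NNK and 0.13 without. The untreated difference was called without array 2 of untreated A/J at week 3 (0.08, adjusted p = 0.0233).

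Tap1 and Tap2 form the peptide transporter, and Psmb9 and Psmb8 replace constitutive catalytic subunits in the immunoproteasome. All 4 genes were called higher in A/J in both comparisons. Psmb8 averaged 10.46 ± 0.25 in A/J with NNK and 9.84 ± 0.24 in C3H with NNK (SD, n = 8 arrays each), a difference of 0.61 ± 0.07 (adjusted p = 2.74e-07). In untreated arrays it differed by 0.38 ± 0.06 (adjusted p = 2.93e-05). Psmb9 differed by 0.50 ± 0.08 with NNK (adjusted p = 9.16e-06) and by 0.41 ± 0.07 without (adjusted p = 1.77e-05).

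Tap2 ranged from 10.46 to 11.09 in A/J with NNK and from 10.09 to 10.51 in C3H with NNK (8 arrays each), a difference of 0.39 ± 0.06 (adjusted p = 2.37e-05), and it differed by 0.33 ± 0.06 in untreated arrays (adjusted p = 4.34e-05). Tap1 differed by 0.41 ± 0.09 with NNK (adjusted p = 7.24e-04) and by 0.24 ± 0.08 without (adjusted p = 0.0186). The untreated call of Tap1 was lost without array 1 of untreated A/J at week 0 (0.19, adjusted p = 0.0562) or without array 1 of untreated C3H at week 0 (0.20, adjusted p = 0.0524). The strains overlapped over 36 arrays for all 4 genes.

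Tapbp encodes tapasin. It averaged 11.73 ± 0.11 in A/J with NNK and 11.60 ± 0.08 in C3H with NNK (SD, n = 8 arrays each), a difference of 0.13 ± 0.04 (adjusted p = 0.0154). The call was lost without array 1 of A/J with NNK at week 6 (0.11, adjusted p = 0.0512) or at week 12 (0.11, adjusted p = 0.0524), and without array 1 of C3H with NNK at week 12 (0.11, adjusted p = 0.0501). In untreated arrays it differed by 0.07 ± 0.04 (adjusted p = 0.132), and it was called without array 1 of untreated A/J at week 3 (0.10, adjusted p = 0.0260) or array 2 of untreated C3H at week 0 (0.10, adjusted p = 0.0396). Another 2 probe sets list Tapbp beside the ribosomal protein gene Rps3a1, and they differed by 0.52 each in untreated arrays. After each strain's mean was removed, their Pearson's r with Tapbp's own probe set was 0.01 (10421908) and -0.04 (10499121) over 36 arrays. With each other it was 0.99, so their values cannot be read as those of Tapbp.

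Tap1 and Psmb9 lie head to head, and their start sites are 226 bases apart in the RefSeq table of build GRCm38.p6, which was made from C57BL/6J and not from either strain studied here. The 2 genes varied together over the arrays of each strain, with Pearson's r of 0.92 over 18 A/J arrays and 0.82 over 18 C3H arrays, described without a test. This was not particular to them. Tap1 and Tap2 had 0.83 in A/J and 0.67 in C3H, and H2-M3 and Psmb9 had 0.76 and 0.85. The promoter windows of Tap1 and Psmb9, from 250 bases before to 50 after each start site, share 275 of 300 bases. The window is shown because it holds both start sites, with the shared bases in capitals.

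Tap1 and Psmb9 (chr17:34187306-34187605, plus strand): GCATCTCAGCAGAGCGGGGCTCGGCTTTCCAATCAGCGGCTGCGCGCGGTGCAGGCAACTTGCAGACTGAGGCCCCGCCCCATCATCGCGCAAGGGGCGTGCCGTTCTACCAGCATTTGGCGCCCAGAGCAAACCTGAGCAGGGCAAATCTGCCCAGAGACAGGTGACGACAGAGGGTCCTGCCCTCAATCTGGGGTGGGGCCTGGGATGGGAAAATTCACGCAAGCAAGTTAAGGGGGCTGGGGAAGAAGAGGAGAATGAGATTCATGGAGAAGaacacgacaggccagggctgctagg

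Windows were found for 8 of the 10 genes, with none for H2-T10 and Tap2. They were searched on both strands for 3 patterns: GAAANNGAA, the core of the interferon-stimulated response element, TTCNNNGAA, the gamma-activated site bound by STAT dimers, and GGGATTCCC, a kappa B site. The first was in 8.56% of the 32851 promoter windows in the table, the second in 8.3% and the third in 0.353%. Of the 8 windows, 2 held the first (H2-T23 and B2m), 2 the second (H2-M3 and Psmb8) and 1 the third (H2-D1). No hits of 1 pattern overlapped those of another in these windows. The windows of Tap1, Tapbp and Psmb9 held none, which says only that these letters are not in them. The following 3 windows are shown with their hit in capitals, because they belong to the light chain, to a classical heavy chain and to the immunoproteasome subunit with the wider difference between NNK-treated strains.

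B2m (chr2:122147437-122147736, plus strand): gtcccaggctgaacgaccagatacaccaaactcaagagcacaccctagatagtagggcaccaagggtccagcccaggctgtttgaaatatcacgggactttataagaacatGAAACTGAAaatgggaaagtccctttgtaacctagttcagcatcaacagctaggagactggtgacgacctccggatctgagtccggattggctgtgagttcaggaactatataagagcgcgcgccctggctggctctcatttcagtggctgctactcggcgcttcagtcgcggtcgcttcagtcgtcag
H2-D1 (chr17:35262844-35263143, plus strand): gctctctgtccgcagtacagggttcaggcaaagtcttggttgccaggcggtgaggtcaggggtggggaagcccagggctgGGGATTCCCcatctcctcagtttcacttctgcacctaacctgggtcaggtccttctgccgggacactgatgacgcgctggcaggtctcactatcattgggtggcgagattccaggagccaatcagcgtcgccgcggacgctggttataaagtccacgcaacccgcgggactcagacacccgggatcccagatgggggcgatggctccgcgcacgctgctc
Psmb8 (chr17:34197945-34198244, plus strand): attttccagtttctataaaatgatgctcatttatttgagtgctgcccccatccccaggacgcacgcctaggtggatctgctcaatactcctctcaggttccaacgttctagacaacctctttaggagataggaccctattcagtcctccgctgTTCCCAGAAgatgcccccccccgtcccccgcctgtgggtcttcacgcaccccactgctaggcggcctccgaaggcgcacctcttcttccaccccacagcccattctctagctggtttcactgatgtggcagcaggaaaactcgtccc

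By the order of genes in that table, 9 of the 10 genes lie on chromosome 17 in the H2 complex and B2m lies on chromosome 2. Tapbp, Psmb9, Tap1, Psmb8 and Tap2 come first, within the class II end that closes with H2-Eb1, and H2-D1, H2-T23, H2-T10 and H2-M3 follow in that order. Between Tapbp and H2-Eb1 25 genes were tested in the untreated strain comparison, 18 of them called (72%), and 0 differed by 1 or more. After H2-Eb1 up to H2-D1, 33 of 54 were called (61.1%) and 2 differed by 1 or more, C4b by 1.49 and C4a by 1.42. After H2-D1 up to H2-M3, 21 of 48 were called (43.8%) and 2 differed by 1 or more, H2-T10 and the Q region gene H2-Q5, by 1.13. Over all genes tested 56.1% were called and 0.749% differed by 1 or more.

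**Figure D3:**
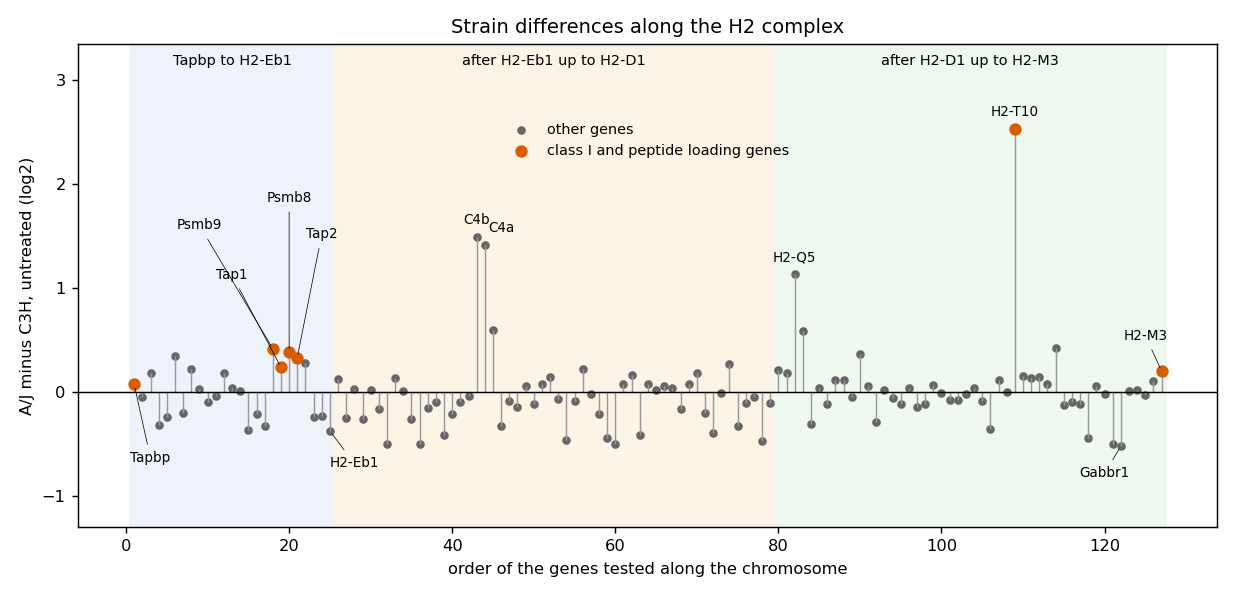
Difference A/J minus C3H in untreated arrays (log2, vertical axis) for the genes tested from Tapbp to H2-M3, in their order along the chromosome (horizontal axis, rank and not distance), with the described genes in orange and the 3 stretches shaded. The 5 genes of the first stretch lie between 0.07 and 0.41, and H2-T10 stands at 2.53 in the last.

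No gene of the 8 was called for NNK in either strain. In A/J the count was 0 of 8, while 7.44% of all genes tested rose and 2.60% fell, in C3H 0 of 8 with 0.0803% called, and for the difference between the strains' NNK changes 0 of 8 with 1.13% called. At an unadjusted p under 0.05 the counts were 1, 0 and 0, beside 26.8%, 6.26% and 18.2% of all genes tested. The median change of the 8 genes was 0.08 in A/J and 0.01 in C3H, beside 0.01 and -0.01 over all genes tested (each mean over weeks 3 to 12).

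The NNK changes in A/J were Tap1 0.20 ± 0.09 (adjusted p = 0.175), H2-T10 0.14 ± 0.07 (adjusted p = 0.210), Psmb9 0.10 ± 0.08, Tapbp 0.08 ± 0.04, Psmb8 0.08 ± 0.07, Tap2 0.04 ± 0.06, B2m 0.02 ± 0.04 and H2-M3 -0.05 ± 0.08. Tap1 averaged 10.94 ± 0.30 with NNK and 10.74 ± 0.16 untreated (SD, n = 8 arrays each), and its highest NNK array, array 1 of week 12, stood at 11.60. The 95% interval of Tap1 ran from 0.00 to 0.39. In C3H the changes ran from -0.10 for Psmb8 to 0.04 for Tap1. The widest difference between the strains' changes was 0.18 ± 0.10 for Psmb8 (adjusted p = 0.355).

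Each leave-one-out fit, with a single array removed, called at most 1 gene for NNK in A/J: Tapbp without array 2 of untreated A/J at week 3 (0.12, adjusted p = 0.0482), H2-T10 without array 2 of untreated A/J at week 9 (0.22, adjusted p = 0.0370) and Tap1 without array 2 of A/J with NNK at week 12 (0.29, adjusted p = 0.0289). At week 9 in A/J, H2-M3 changed by -0.25 with all arrays (adjusted p = 0.435). Without array 1 of untreated A/J at that week the change was -0.64. That value is set against array 2 alone, which at 10.65 stood far from the other untreated A/J arrays. Of the probe sets of several symbols, 10450075 changed by 0.10 ± 0.04 in A/J (adjusted p = 0.0684), and 10444780 by 0.01 ± 0.04 in A/J and 0.11 ± 0.04 in C3H (adjusted p = 0.671).

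By single week 0 of 8 were called at every week in both strains. The shares of all genes called in A/J were 0.354% at week 3, 7.27% at week 6, 1.54% at week 9 and 0.0736% at week 12, and in C3H 0.0936%, 0.0134%, 0% and 0%. The largest weekly value in A/J was that of Psmb8 at week 12, 0.44, with 10.96 and 10.58 with NNK against 10.29 and 10.37 untreated (adjusted p = 0.355). In C3H it was Psmb8 at week 6, -0.42, with 9.63 and 9.39 with NNK against 10.08 and 9.79 untreated.

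**Figure D4:**
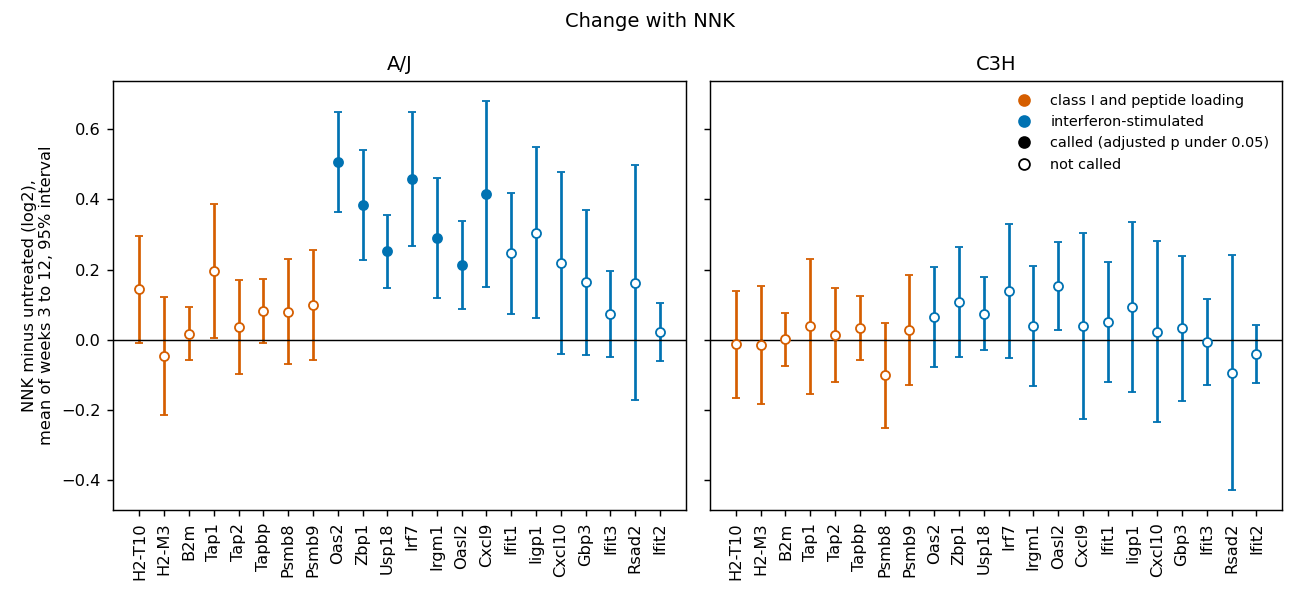
Change with NNK (NNK minus untreated, log2, mean of weeks 3 to 12, with the 95% interval of the fit) in A/J (left) and C3H (right) for the 8 genes (orange) and 14 interferon-stimulated genes (blue), filled where called. In A/J none of the orange points is filled and 7 of the blue are, and in C3H none is filled.

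Genes around the pathway were counted from lists chosen with earlier results of these data known. Of 14 interferon-stimulated genes 7 rose and 0 fell with NNK in A/J, with a median of 0.25, while 7.44% of all genes tested rose. In C3H 0 of the 14 were called, and 11 had positive changes. The strains' NNK changes were called as different for 1 of the 14, Oas2 (adjusted p = 0.0302), beside 1.13% of all genes tested. In A/J Oas2, a sensor of double-stranded RNA, rose by 0.51 (adjusted p = 5.09e-05) and Irf7, a regulator of interferon genes, by 0.46. Zbp1, a sensor of nucleic acids, rose by 0.38 and Usp18, which trims ISG15 from proteins, by 0.25. Of 8 loading partners 2 rose, Psme1, a proteasome activator subunit, by 0.16 (adjusted p = 0.00593) and Calr, the chaperone calreticulin, by 0.12 (adjusted p = 0.0350), and 0 fell. Of 11 other class I genes 0 were called for NNK in A/J, nor were any of 10 regulators or of 3 constitutive proteasome subunits. In the strain comparison of untreated lungs the interferon list held 3 genes higher in A/J and 7 lower, among them Oas2 at -1.44 and Ifit3 at -0.79. Skin genes moved with the NNK comparison in A/J (7 of 7 fell), with both untreated arrays of week 6 high. Neutrophil genes moved with it too (3 of 7 rose, with Ltf, a granule protein, at 1.36, and 6 of 7 at week 6, with a median of 1.36), and their part in the NNK comparison was not tested. Without week 6 and the untreated A/J array of week 0 with high Lor, the count of the 8 genes called for NNK in A/J was also 0.

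In the untreated strain comparison 36.3% of all genes tested were lower in A/J. Of the same lists, 5 of 11 other class I genes were higher in A/J and 2 lower, with H2-Q5 at 1.13, H2-Q10 at 0.59, H2-M10.3 at 0.42 and H2-T24 at -0.36. Of 8 loading partners 4 were higher and 1 lower: Psmb10, the remaining immunoproteasome subunit, at 0.39, Psme2, a proteasome activator subunit, at 0.30, Tapbpl, a tapasin-related chaperone, at 0.19 and Erap1, an aminopeptidase that trims peptides, at 0.14 were higher. Of 3 constitutive proteasome subunits Psmb6 (0.24) and Psmb7 (0.18) were higher and Psmb5 (-0.42), which Psmb8 replaces, was lower. Of 10 regulators 5 were higher and 1 lower, with Rfxank, a subunit of the RFX complex, at 0.32. B cell markers were higher in A/J for 4 of 6 genes and lower for 0. Macrophage and dendritic cell markers were lower for 6 of 8 and higher for 1. T and NK cell markers were lower for 4 of 9 and higher for 1. Skin genes were higher for 6 of 7 and heart muscle genes higher for 4 of 5 and lower for 1. The part of these markers in the strain differences was not tested.

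Over the weeks, 3 of the 8 genes rose in untreated A/J and 0 fell, while 17.5% of all genes tested were called rising. All 8 values were positive, with a median of 0.29 over 12 weeks beside 0.07 over all genes tested. Without week 6 and the untreated A/J array of week 0 with high Lor the median was 0.14, beside 0.07 over all genes tested, with H2-T10 at 0.52, Psmb8 at 0.45, Tap2 at 0.27, H2-M3 at 0.19, B2m at 0.10, Tap1 at 0.04, Tapbp at 0.02 and Psmb9 at 0.01. In untreated C3H 0 of 8 were called, with 0.863% of all genes called in either direction, and 2 of 8 at an unadjusted p under 0.05, beside 12.1% of all genes tested. All 8 values were positive there too, with a median of 0.19 beside 0.00. The trends were not called as different between the strains for any of the 8 (0 of 8, 1.32% of all genes called).

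H2-T10 in untreated A/J measured 10.90 and 10.44 at week 0, 10.81 and 10.64 at week 3, 11.27 and 11.25 at week 6, 11.03 and 11.61 at week 9, and 11.19 and 11.31 at week 12. The 2 earliest weeks lay below the 3 later ones with no overlap, a split chosen after seeing these values. The share of all genes that split so was not counted. Both arrays of week 6 and array 2 of week 0 are those with high skin genes. The trend was 0.70 ± 0.13 over 12 weeks (adjusted p = 9.95e-04), against 0.07 ± 0.13 in C3H (adjusted p = 0.882), and the difference between the trends was 0.63 ± 0.19 (adjusted p = 0.0856). Without week 6 and the untreated A/J array of week 0 with high Lor, the A/J trend was 0.52 (adjusted p = 0.0415) and the difference between the trends was 0.45 (adjusted p = 0.334). The difference between the trends was called without array 1 of untreated A/J at week 0 (0.81, adjusted p = 0.0261) or at week 9 (0.75, adjusted p = 0.0137).

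Psmb8 measured 9.82 and 9.77 at week 0, 10.28 and 10.37 at week 3, 10.36 and 10.48 at week 6, 10.14 and 10.70 at week 9, and 10.29 and 10.37 at week 12 in untreated A/J. Both week 0 arrays were the lowest. Its trend was 0.47 ± 0.13 (adjusted p = 0.0137), and 0.28 ± 0.13 in C3H (adjusted p = 0.394). The call was lost without array 2 of week 0 (0.45, adjusted p = 0.0644) or array 2 of week 12 (0.43, adjusted p = 0.0709), both untreated A/J, and under array weights (0.47, adjusted p = 0.0668).

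Tap2 rose by 0.33 ± 0.12 in untreated A/J (adjusted p = 0.0415), and its call was lost in 5 of 36 leave-one-out fits, with values from 0.24 to 0.43: without either array of week 0, array 1 of week 3, array 2 of week 9 or array 2 of week 12. Only the 10 untreated A/J arrays enter this trend, so leaving out any other array could not move its value. The call of Tap2 was also lost without normalization (0.28, adjusted p = 0.114), under array weights (0.33, adjusted p = 0.105) and on the A/J arrays alone (0.33, adjusted p = 0.127). H2-M3 gave 0.34 ± 0.14 (adjusted p = 0.0945), Psmb9 0.24 ± 0.14, Tap1 0.22 ± 0.17, B2m 0.14 ± 0.07 and Tapbp 0.05 ± 0.08. Without array 1 of untreated A/J at week 0, H2-M3 (0.49, adjusted p = 0.0474) and Psmb9 (0.47, adjusted p = 0.0239) were called, and without array 1 of week 9 H2-M3 (0.49, adjusted p = 0.00260). B2m was called without array 1 of week 3 (0.19, adjusted p = 0.0354). Without week 6 and the week 0 array with high Lor, Psmb8 (adjusted p = 0.0792) and Tap2 (adjusted p = 0.256) were not called.

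**Figure D5:**
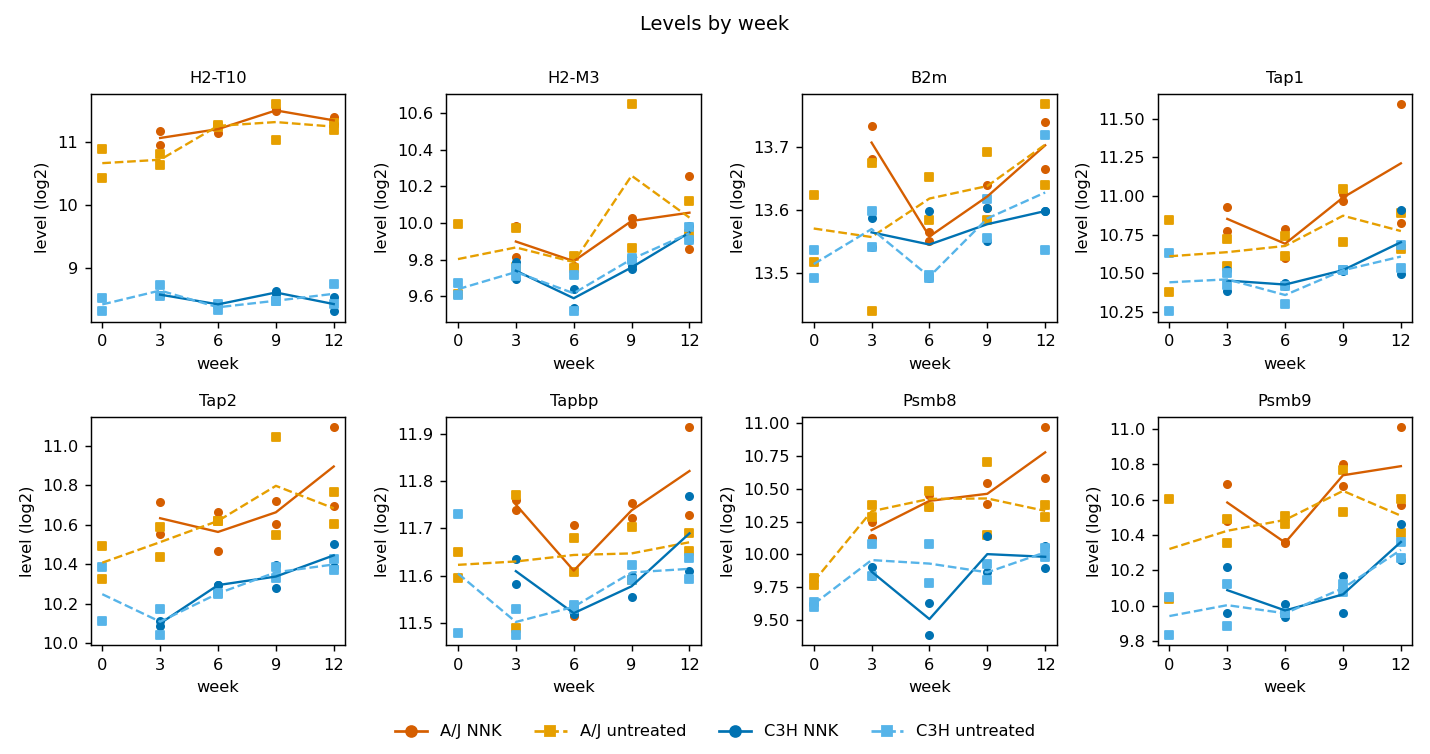
Level (log2, vertical axis) by week (horizontal axis) of the 8 genes in A/J with NNK, A/J untreated, C3H with NNK and C3H untreated, each point an array and each line the group mean. H2-T10 in untreated A/J stood at 10.90 and 10.44 at week 0 and at 11.19 and 11.31 at week 12.

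Of the probe sets of several symbols, 10444780 (0.27), 10450075 (0.21) and 10450694 (0.89) rose in untreated A/J, with 16.7% of the named probe sets rising. The first was lost without array 2 of week 0 (0.19, adjusted p = 0.148) or array 2 of week 12 (0.22, adjusted p = 0.102), and the second without array 2 of week 0, array 2 of week 9 or either array of week 12, with values from 0.13 to 0.29 over 36 leave-one-out fits. Both were lost without week 6 and the week 0 array with high Lor (0.19, adjusted p = 0.186, and 0.13, adjusted p = 0.273) and on the A/J arrays alone (adjusted p = 0.0830 and 0.103). The second was also lost without normalization (0.15, adjusted p = 0.136) and under array weights (adjusted p = 0.0647). The third stayed called in all 36 leave-one-out fits, with values from 0.59 to 1.19, the lowest without array 2 of untreated A/J at week 0, the array with high Lor. The 2 probe sets listing Tapbp with Rps3a1 also rose in untreated A/J, 10421908 by 0.31 (adjusted p = 0.00180) and 10499121 by 0.29 (adjusted p = 0.00214). Their levels did not go with Tapbp's own probe set, as given above. In untreated C3H 10450075 rose by 0.28 (adjusted p = 0.0348), with 0.399% of the named probe sets rising, and this was lost in 7 of 36 leave-one-out fits, without either array of weeks 0, 3 and 12 or array 1 of week 9, with values from 0.25 to 0.31. It was also lost without normalization (0.27, adjusted p = 0.0548), without a filter (adjusted p = 0.0533) and without week 6 and the week 0 array with high Lor (adjusted p = 0.0513). Probe set 10450682 gave 0.27 ± 0.12 in A/J (adjusted p = 0.121) and 0.32 ± 0.12 in C3H (adjusted p = 0.254). Only the 10 untreated arrays of a strain enter its trend. The leave-one-out fits without any other array could therefore not move these values.

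In untreated A/J 4 of 11 other class I genes rose and 0 fell, H2-Q4 by 0.51, H2-Q10 by 0.46, H2-M10.2 by 0.42 and H2-Bl by 0.39. Of 8 loading partners 0 rose and 2 fell, Calr by 0.22 and Pdia3, a disulfide isomerase of the loading complex, by 0.23. Of 14 interferon-stimulated genes 2 rose, Ifit3 by 0.34 and Ifit2 by 0.29. T and NK cell markers rose for 2 of 9 genes, Nkg7, a granule protein, by 0.67 and Zap70, a kinase of T cell receptor signalling, by 0.34. Liver genes rose for 2 of 3, Alb, serum albumin, by 1.26 and Apoa1, an apolipoprotein, by 0.46, and skin genes fell for 2 of 7. The part of these markers in the trend was not tested.

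The 5 genes outside the group whose levels went most with the mean of the 8, after each strain's mean was removed, were H2-Q4 (Pearson's r = 0.94 over 36 arrays), H2-K2 (0.86), Ciita (0.78), Dtx1 (0.78) and Gbp8 (0.76). These correlations describe arrays that share strains, weeks and hybridizations, and no p is attached. Ciita is the transactivator of class II genes and Gbp8 a guanylate-binding protein of the interferon response.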

How the data were processed

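The authors deposited 1 linear-scale intensity per array for each of 35556 probe sets. The submitters' processing notes name PLIER and Affymetrix Expression Console. Versions, background settings and the genome build are not given in the sources used here. Arrays have no read depth, so precision is set by how many were run. Array medians ran from 285 to 347.

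Values were turned to log2(intensity + 16) and quantile-normalized with limma 3.58.1 in R 4.3.3. Of the probe sets, 21789 had 1 symbol, 1621 several and 12146 none. The brightest probe set by mean stood for each of 19938 genes, and genes dimmer than the 25th percentile were dropped, which kept 14953. A limma fit of 18 group means with 18 residual degrees of freedom gave the changes, standard errors and p-values adjusted by the Benjamini-Hochberg method over all genes. The strain difference averaged 4 NNK or 5 untreated weeks, the NNK change 4 weekly differences, and the trend is a linear contrast over 12 weeks. Probe sets of several symbols were fitted with all named probe sets, an alternative added after seeing the files. The scripts were tested on simulated arrays. Promoter windows and gene order came from RefSeq tables of build GRCm38.p6.

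The genes, lists and rules were chosen with earlier results of these data known. All 10 genes are described, up to 4 genes of smallest p are named per list, the 5 genes most like the mean, and the largest differences of each stretch of the H2 complex. Same-numbered arrays did not pair: over 8 comparisons their deviations correlated from -0.20 to 0.22, 2 over 0.1. Alternatives were no normalization, another pseudocount, other filters, variance settings, array weights, the replicate block, each strain's own arrays and each array left out.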

Additional observations from a re-analysis of the deposited data

Results flagged for a closer look

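The 8 genes and 4 probe sets of several symbols were each examined in the 4 combinations of strain and treatment. Of these 48 sets of arrays 5 held an array far from the others, and chance flags about 1 in 20 such sets. In A/J with NNK, array 1 of week 12 stood at 11.595 for Tap1, with the next array at 11.01, and at 11.093 for Tap2, with the next at 10.72. The same array had the highest mean of the 8 genes (11.50) and the highest mean of the interferon-stimulated genes (10.11) among A/J arrays. In C3H with NNK, array 2 of week 12 stood at 10.908 for Tap1, with the next at 10.53 (lowest 10.39), and at 11.769 for Tapbp, with the next at 11.64. In untreated A/J, array 2 of week 9 stood at 10.649 for H2-M3, with the next at 10.12, and it also had the highest T and NK cell mean (9.29) and Alb level (11.71) among A/J arrays. Without that array the untreated strain difference of H2-M3 was 0.12 (adjusted p = 0.0565), beside 0.20 with it.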

How the results depend on the processing

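The counts of genes called higher in A/J were from 6 to 7 with NNK under the alternatives run and from 5 to 7 when 1 array was left out, and 6 and from 4 to 7 without NNK. The NNK counts were 0 in A/J, in C3H, for their difference and by week under all alternatives run. Leaving out 1 array gave from 0 to 1 in A/J and by week, and 0 in C3H and for the difference. The trend count in untreated A/J was 3, with 2 without normalization, 2 on that strain's own arrays, 1 under array weights and 1 without week 6 and the untreated A/J array of week 0 with high Lor, and from 1 to 4 when 1 array was left out. In untreated C3H it was 0, with 1 on its own arrays (H2-M3, 0.27, adjusted p = 0.0387). The trend difference was 0, and from 0 to 1 when 1 array was left out. The cause of these shifts was not tested. With the replicate block the counts were 6 and 6 for strain, 0 for NNK and 3 and 0 for the trends in A/J and C3H, so it changed no call count. Of 1078 values of 24 called results under alternatives, 1027 kept direction and call, 51 kept direction and lost the call, and 0 reversed. Many of those values come from leave-one-out fits without an array that lies outside the contrast. Such a value could not move, so its kept direction was fixed in advance, and these counts are no measure of stability. Without normalization the median of all genes moved by at most -0.08, in the A/J trend. The 2 arrays a strain, treatment and week limit the precision, and genes on shared probe sets cannot be told apart.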

Other observations

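Of 8 MHC class II genes, 1 was higher and 7 lower in untreated A/J than in untreated C3H, beside 19.8% and 36.3% of all genes tested. H2-Eb1 stood at -0.38, H2-DMa at -0.33, Cd74, the invariant chain, at -0.26 and H2-Aa at -0.23. In NNK-treated lungs 0 of the 8 were higher and 5 lower in A/J, beside 3510 and 4456 of 14953 genes tested. Over the weeks in untreated A/J 2 of the 8 rose, H2-DMa by 0.37 and H2-Aa by 0.22, while 17.5% of all genes tested rose. With NNK in A/J 1 fell, H2-Ob, a modulator of class II peptide loading, by 0.43 (adjusted p = 0.0279), while 2.60% of all genes tested fell. Of 3 class I-like genes outside the H2 complex, Mr1, which presents vitamin metabolites, was lower in untreated A/J (-0.15, adjusted p = 4.04e-05), and Hfe, a regulator of iron uptake, rose by 0.36 over the weeks in untreated A/J (adjusted p = 0.00228).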
